A study of Mus musculus with 2 samples.

Results

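Open chromatin was described at 10 genes of joint formation and articular cartilage: Creb5, Prg4, Erg, Osr1, Osr2, Nfatc1, Nfatc2, Trps1, Barx1 and Barx2. The members were taken as every ATAC-seq peak that lay inside 1 of these genes or within 100 kb of it, and after overlapping peaks of both femur ends had been merged they made up 74 of the 32388 regions of the study. The gene group was chosen with measured values known: Creb5 was selected on the number of peaks called only in the distal femur in its stretch of chromosome 6, so that number is a description at Creb5 and carries no test. Peaks came from the proximal and the distal cartilaginous ends of the femur of FVB mouse embryos (strain label FVBNJ) at E15.5, with no mutation or treatment in either group. The tissue held the growth plate with its chondrocyte zones, the perichondrium around it and the cartilage of the later joint ends, so the joint surface was part of a mixture. Each library was made from 50000 cells of the ends of 1 litter, with 8 animals on average.

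ATAC-seq uses a transposase that cuts DNA where chromatin is open, and a peak is a stretch with many cuts. Both biological replicates of an end were combined into 1 list of positions by the authors, and a peak entered it if its irreproducible discovery rate (IDR, a measure of how well replicates rank a peak alike) was under 0.05. The lists carry no peak height, so a peak is either present or absent at an end, with its width. They allow no replicate error and no test between ends, and a peak that is missing from 1 list may have been present below the limit for calling it. In such bulk tissue, fewer cells of a type and less open chromatin in each cell cannot be told apart. The proximal list held 28257 peaks and the distal list 27958, all on the 19 autosomes. Of the 4 cartilage markers, Sox9, Col2a1 and Acan had a region at a start and Matn1 had none. Among markers of other cell types, Actn3 of muscle had a region at a start, and Myod1, Myf5, Hbb-bs, Ptprc, Krt5, Krt14, Cdh1, Pecam1 and Cdh5 had none. The blood marker Gata1 lies on the X chromosome, which the lists do not cover.

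A synovial joint forms where cartilage cells of the young limb skeleton turn into a flat interzone, whose descendants give rise to articular cartilage. Articular chondrocytes stay apart from the growth plate, where chondrocytes proliferate, enlarge and are replaced by bone. Creb5, a basic leucine zipper factor of the CREB/ATF family, is needed in articular chondrocytes for expression of Prg4, the gene of the joint lubricant lubricin. Factors of this family bind the cyclic AMP response element (CRE) and, with partners such as Jun, the related AP-1 site. Erg is an ETS factor of the interzone and of articular chondrocytes. Osr1 and Osr2 are zinc finger factors required for joint formation. Nfatc1 and Nfatc2 are calcium-regulated factors, Trps1 is a repressor with a GATA-type zinc finger, and Barx1 and Barx2 are homeobox factors of skeletal precursors.

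The sequences that matter most are the start regions of Creb5 and the intronic regions that were called in the distal femur alone. Sequences are from the GRCm38 assembly, whose coordinates are those of mm10, and are written 5′ to 3′ on the strand of the gene. Capitals mark matches, on either strand, to AP-1 (TGACTCA), CRE (TGACGTCA), ETS (CNGGAAG) or NFAT (TGGAAAA). The first lies directly before the upstream start, at chr6:53287020-53287269 on the plus strand, and the second directly before the internal start, at chr6:53573050-53573299 on the plus strand.
Creb5 upstream start: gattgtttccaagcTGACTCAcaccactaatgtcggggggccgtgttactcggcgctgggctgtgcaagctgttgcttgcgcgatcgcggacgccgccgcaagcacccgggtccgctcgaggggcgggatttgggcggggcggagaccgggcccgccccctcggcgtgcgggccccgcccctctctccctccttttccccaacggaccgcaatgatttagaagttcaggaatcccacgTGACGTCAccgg
Creb5 internal start: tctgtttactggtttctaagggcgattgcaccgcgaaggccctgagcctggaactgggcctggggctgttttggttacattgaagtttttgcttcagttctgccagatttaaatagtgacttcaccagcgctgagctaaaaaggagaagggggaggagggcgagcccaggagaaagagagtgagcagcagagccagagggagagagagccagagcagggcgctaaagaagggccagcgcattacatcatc

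In the window before the upstream start, AP-1 matched from position -236 to -230 and CRE from position -12 to -5, counted in bp from the start. The window before the internal start held no match to these 4 motifs. This contrast depends on the window. In the central 200 bp of its region, the internal start had 1 AP-1 match, which lay after the start. The central 200 bp of the upstream start region held no AP-1 or CRE match. In windows of 250 bp before the most upstream start of 20807 autosomal protein-coding genes, AP-1 was found in 3.91%, CRE in 1.93%, ETS in 27.0% and NFAT in 5.64%, and 11 genes (0.0529%) had both AP-1 and CRE. This pair is the one that the Creb5 window held, so its share is a description and not a test. A match is a description of letters and does not show that a factor was bound.

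The 5 intronic regions called in the distal femur alone are shown by their central 200 bp, on the plus strand, in the order of transcription. They lie at chr6:53337404-53337603, chr6:53372082-53372281, chr6:53455566-53455765, chr6:53498115-53498314 and chr6:53562791-53562990.
Creb5 region 2: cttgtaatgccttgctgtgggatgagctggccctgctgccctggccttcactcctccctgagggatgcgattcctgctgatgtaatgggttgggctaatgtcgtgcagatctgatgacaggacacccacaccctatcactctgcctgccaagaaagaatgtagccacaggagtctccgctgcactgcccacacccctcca
Creb5 region 3: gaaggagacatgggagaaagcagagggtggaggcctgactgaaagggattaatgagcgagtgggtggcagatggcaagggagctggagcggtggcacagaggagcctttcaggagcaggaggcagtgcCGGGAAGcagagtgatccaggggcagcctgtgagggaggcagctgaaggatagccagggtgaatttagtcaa
Creb5 region 4: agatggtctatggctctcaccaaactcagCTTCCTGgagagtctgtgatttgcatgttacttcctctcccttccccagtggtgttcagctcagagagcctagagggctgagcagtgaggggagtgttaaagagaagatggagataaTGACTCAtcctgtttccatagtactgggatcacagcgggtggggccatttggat
Creb5 region 5: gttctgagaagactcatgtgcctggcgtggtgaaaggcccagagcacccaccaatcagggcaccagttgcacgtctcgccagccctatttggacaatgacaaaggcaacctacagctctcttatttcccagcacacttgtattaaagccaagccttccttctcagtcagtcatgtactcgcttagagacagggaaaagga
Creb5 region 6: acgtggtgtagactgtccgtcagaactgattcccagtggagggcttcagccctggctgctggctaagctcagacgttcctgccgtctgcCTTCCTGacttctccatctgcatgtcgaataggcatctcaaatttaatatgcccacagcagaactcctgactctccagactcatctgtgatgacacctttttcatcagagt

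In these windows AP-1 was found in region 4 alone, and ETS in regions 3, 4 and 6. Over their whole length regions 4, 5 and 6 had an AP-1 match, with 2 in region 5. Prg4 is shown because it is the known target of Creb5. Its nearest upstream region, called at both ends, is at chr1:150472592-150472791, and its nearest end-only region is at chr1:150480802-150481001, both on the minus strand.
Prg4 region 4: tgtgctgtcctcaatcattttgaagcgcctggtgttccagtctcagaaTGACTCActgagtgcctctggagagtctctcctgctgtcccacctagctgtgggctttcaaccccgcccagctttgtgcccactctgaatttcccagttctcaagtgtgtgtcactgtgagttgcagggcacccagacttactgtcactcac
Prg4 region 3: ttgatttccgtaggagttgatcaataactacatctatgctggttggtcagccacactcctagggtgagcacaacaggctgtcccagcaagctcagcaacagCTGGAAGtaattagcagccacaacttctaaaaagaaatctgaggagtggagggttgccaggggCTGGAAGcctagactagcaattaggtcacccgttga

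The first of these held 1 AP-1 match and the second 2 ETS matches. For Erg and Trps1, the windows with 2 AP-1 matches upstream of the gene are given, at chr16:95620113-95620312 and at chr15:50974968-50975167, both on the minus strand. The Erg region was called at both ends and the Trps1 region in the distal femur alone.
Erg region 4: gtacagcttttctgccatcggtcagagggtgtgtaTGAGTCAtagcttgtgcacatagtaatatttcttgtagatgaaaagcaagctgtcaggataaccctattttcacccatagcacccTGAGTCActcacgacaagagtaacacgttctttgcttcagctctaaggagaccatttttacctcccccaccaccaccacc
Trps1 region 1: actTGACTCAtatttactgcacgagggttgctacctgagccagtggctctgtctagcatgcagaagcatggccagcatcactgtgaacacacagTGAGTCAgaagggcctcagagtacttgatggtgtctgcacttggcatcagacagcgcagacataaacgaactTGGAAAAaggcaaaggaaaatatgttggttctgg

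The open chromatin of Creb5 was split along the gene. Creb5 (ENSMUSG00000053007.9, chr6:53287270-53700376, plus strand) had 10 regions, of which 4 held a peak of both ends (shared), 6 held a distal peak only (distal-only) and 0 held a proximal peak only (proximal-only). All 6 distal-only regions lay at or after the upstream start and before the internal start, and all 4 shared regions lay at or after the internal start. Up to the internal start, 286 kb into the gene, the distal list had 6 peaks and the proximal list had 0.

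Creb5 has 11 annotated starts in GENCODE release M21, which fall into 4 places. The 6 starts within 58 bp of the 5′ end were covered by a distal peak 813 bp wide at chr6:53286758-53287570, and the nearest proximal peak was 285371 bp away. The start 3153 bp into the gene and the start 23601 bp into it had no peak within 1 kb in either list. The 3 starts of the internal place, from 286030 to 286106 bp into the gene, lay in a shared region at chr6:53572941-53573534, where the proximal peak was 594 bp wide and the distal peak 556 bp. Thus 1 start place of Creb5 was open at both ends and the most upstream place was called in the distal femur alone.

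The other 5 distal-only regions were intronic by the reference transcript, which has 11 exons and begins at the upstream start. Region 2, 634 bp wide, lay in intron 1, 50.2 kb from the 5′ end. Region 3, 366 bp wide, lay in intron 2 at 84.9 kb. Regions 4, 5 and 6 lay in intron 5 at 168 kb, 211 kb and 276 kb, with widths of 423, 594 and 539 bp. Region 6 was 9781 bp from the nearest proximal peak, that of the internal start, and each of the others was over 74 kb from one. Region 1 was wider than 64.4% of distal peaks, region 2 than 42.6%, and region 3 than 8.13%.

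The shared regions after the internal start were in intron 7 and past the gene. Region 8 was 750 bp wide in the proximal list and 771 bp in the distal list, and region 9 was 691 and 939 bp. Region 10, 65831 bp past the gene, was 421 bp wide in the proximal list and 643 bp in the distal list. The distal peak was the wider one in 3 of the 4 shared regions of Creb5, with a median difference of 122 bp. Over all 23450 shared regions with 1 peak in each list, the distal peak was wider in 42.4%, with a median difference, distal minus proximal, of -15 bp.

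**Figure D1:**
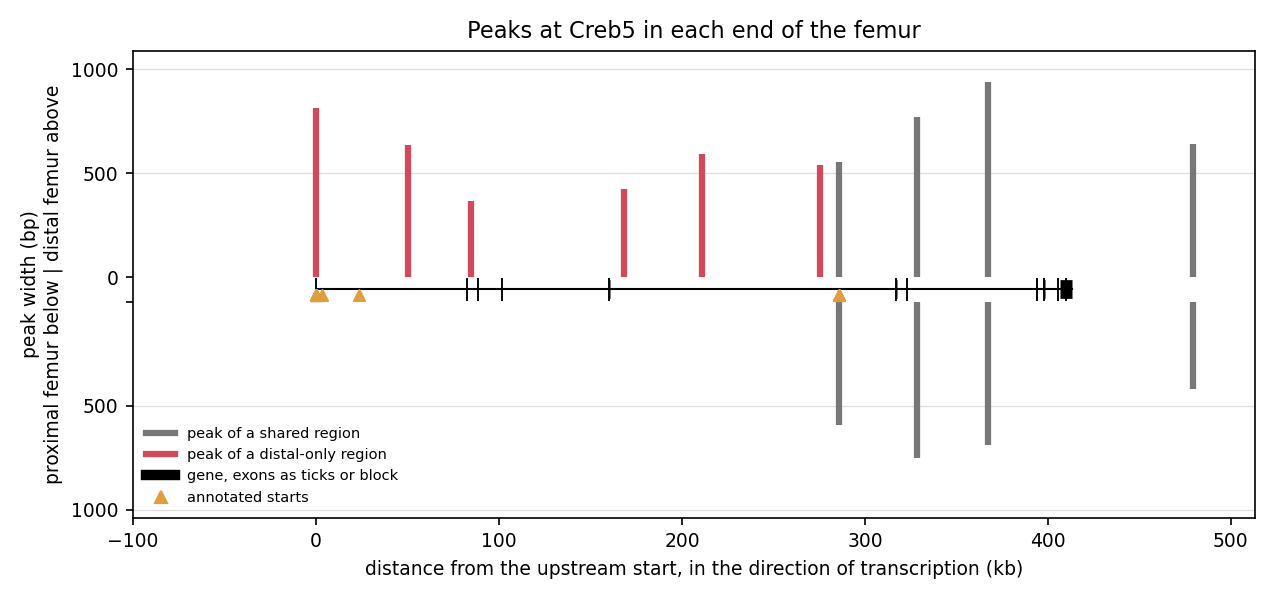
Peaks at Creb5 by distance from the upstream start (x axis, kb) and width (y axis, bp), with distal femur peaks drawn upward and proximal femur peaks downward. The 6 distal-only peaks stand between the upstream start and the internal start at 286 kb with nothing below them, and the 4 shared regions follow from the internal start on.

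The stretch without a proximal peak ran on both sides of the upstream start, from base 52903760 to base 53572940 of chromosome 6 (669 kb), and it held 7 distal-only regions. The seventh, 666 bp wide, lay in Jazf1. Of the 28238 intervals between neighbouring proximal peaks, 372 were as long or longer, and this 1 interval alone held as many distal peaks. In the 53 to 54 Mb bin of chromosome 6, which was used in the selection of Creb5, there were 11 regions: 4 shared, 0 proximal-only and 7 distal-only. As many or more distal-only regions were present in 38 of 2353 bins with a region, and the median was 1. The 7 of this bin are the same as those of the stretch without a proximal peak. The rank of that stretch among intervals is thus a description too. The other protein-coding genes of the bin were Cpvl, Jazf1 and Tril.

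Among the 20807 autosomal protein-coding genes, 7 (0.0336%) had at least 6 distal-only regions within 100 kb. Creb5 and Ptpn3, a tyrosine phosphatase gene, were the 2 genes (0.00961%) with at least 6 distal-only and 0 proximal-only regions. The likeness to Creb5 was measured as the number of distal-only minus proximal-only regions over both lists, which was 6 for Creb5. Outside the windows of the 10 genes, the highest values were 17 for Gm20388, a predicted gene with an annotated length of 4434882 bp (23 distal-only and 6 proximal-only), and 6 for Ptpn3 (6 and 0). They were followed by 5 each for Maml3, a Notch coactivator gene (7 and 2), Nsmce2, a SUMO ligase gene (6 and 1), and Ascc1 (5 and 0). Only 1 gene was taken per group of overlapping windows, up to 5 genes, so other genes may also have a value of 5 or more. Creb5 had 1.63 regions per 100 kb of its window, and 38.1% of genes had fewer, so its window was not dense in regions.

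Over the 10 genes, 46 of the 74 regions were shared (62.2%), 9 were proximal-only (12.2%) and 19 were distal-only (25.7%, 95% Wilson interval 17.1 to 36.7%). Of all 32388 regions, 12.9% were distal-only and 14.1% proximal-only. For a limit on width, regions with at least 1 peak of their list's median width or more were kept, in their original class. This left 26 shared, 3 proximal-only and 1 distal-only member region, so that the distal-only regions no longer outnumbered the proximal-only ones. Intervals cover counting error only, and regions of 1 gene are not independent of each other. Without Creb5, 13 of 64 regions were distal-only (20.3%, interval 12.3 to 31.7%) and 9 were proximal-only (14.1%). The interval without Creb5 held the distal-only share of all regions and the interval with it did not, which is a description, since Creb5 was selected on these peaks.

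Regions far from starts are end-only more often than regions at starts, and most member regions were far from them. Of the regions over 1 kb from any annotated start, 17.1% were distal-only and 20.9% proximal-only over the whole study. The 61 such regions of the 10 genes had 16 distal-only (26.2%, interval 16.8 to 38.4%) and 8 proximal-only (13.1%, interval 6.80 to 23.8%). Both whole-study shares lay inside these intervals.

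**Figure D2:**
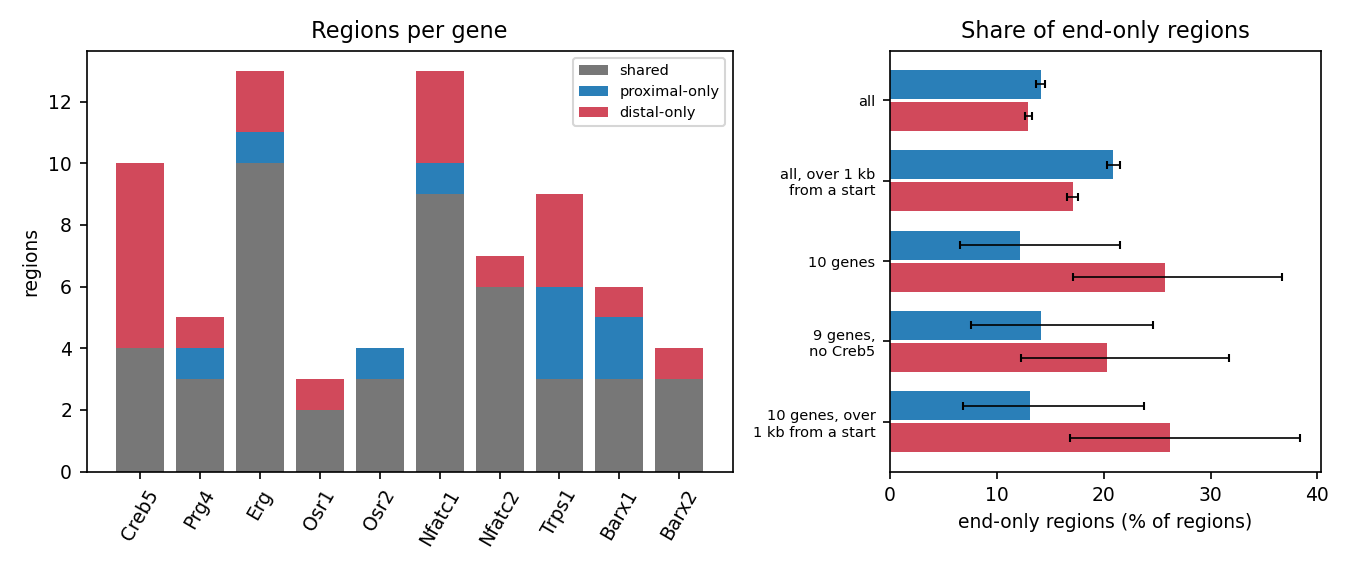
Left, the number of shared, proximal-only and distal-only regions within 100 kb of each gene. Right, the percentage of regions that were proximal-only (blue) or distal-only (red) among all regions and among those of the genes, with 95% Wilson intervals as bars: the distal-only share was 25.7% at the 10 genes and 20.3% without Creb5, against 12.9% of all regions.

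By position, 10 of the member regions were within 1 kb of a start, 25 were intronic, 1 overlapped an exon, 22 lay in the upstream flank and 16 in the downstream flank. The start regions were 6 shared, 1 proximal-only and 3 distal-only. Of 12418 regions at starts of protein-coding genes, 3.84% were proximal-only and 6.72% distal-only. The intronic regions were 12 shared, 4 proximal-only and 9 distal-only, and 5 of these 9 were in Creb5. In the other genes 4 of 18 intronic regions were distal-only (22.2%, interval from 9 to 45.2%), beside 18.1% of all 7069 intronic regions over 1 kb from a start. The upstream flanks had 15 shared, 4 proximal-only and 3 distal-only regions, and the downstream flanks 12 shared, 0 proximal-only and 4 distal-only. The upstream intervals were 7.31 to 38.5% for proximal-only and 4.75 to 33.3% for distal-only, and the downstream ones 0 to 19.4% and 10.2 to 49.5%. Of all regions over 1 kb from any start, 20.9% were proximal-only and 17.1% distal-only. In the flanks, 3 regions lay at the starts of other protein-coding genes, namely Odr4 and Tpr near Prg4, Vps13b near Osr2 and Ptpdc1 near Barx1, and each was shared.

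A region within 1 kb of a start was found at 8 of the 10 genes, beside 59.1% of the 20807 autosomal protein-coding genes. It was shared at 6 genes: Creb5 (internal start), Erg, Osr1, Osr2, Nfatc1 and Nfatc2. At Trps1 and Barx2 the start regions were end-only, which was so at 4.16% of all genes. Prg4 and Barx1 had none. More distal-only than proximal-only regions were found at 6 of the 10 genes (28.3% of all genes) and more proximal-only than distal-only regions at 2, Osr2 and Barx1 (23.6% of all genes). Prg4 and Trps1 had as many of each.

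**Figure D3:**
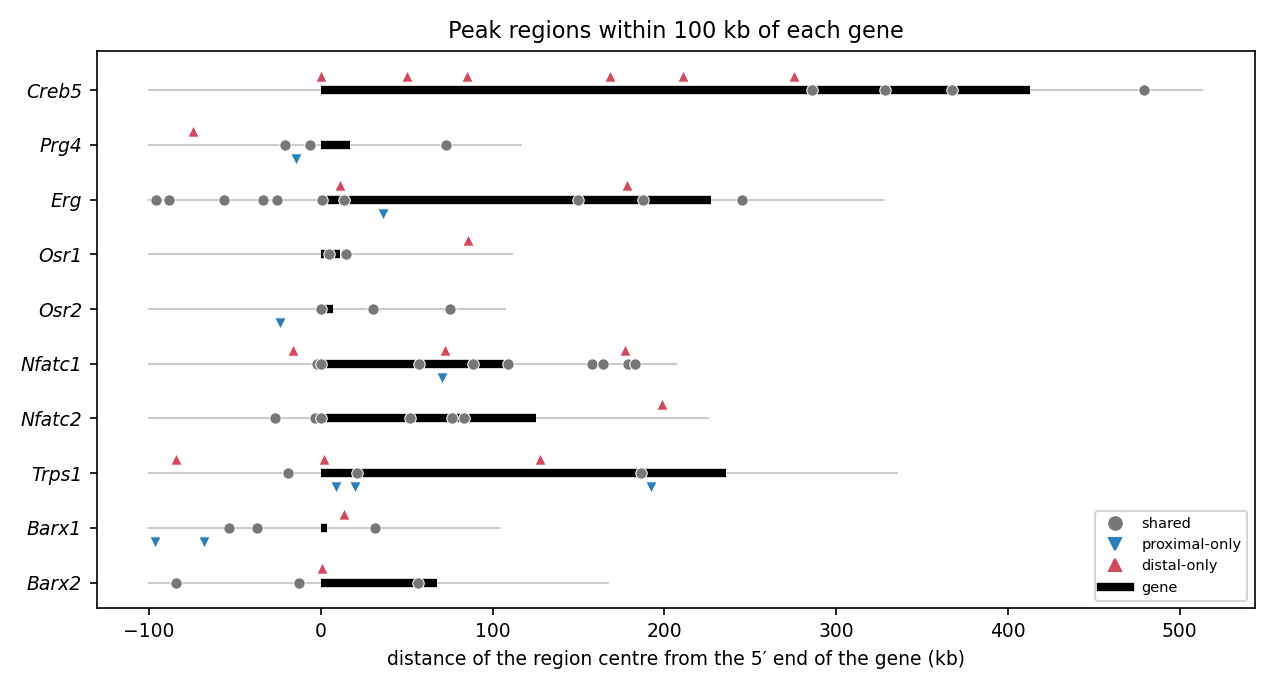
Regions within 100 kb of each gene, placed by the distance of their centre from the 5′ end of the gene in the direction of transcription (x axis, kb), with the gene as a black bar. Shared regions are grey circles, proximal-only regions blue triangles below and distal-only regions red triangles above the line: Creb5 has 6 distal-only regions and each of the other 9 genes has at most 3.

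Prg4, the lubricin gene, had no peak at its start in either femur end. Prg4 (ENSMUSG00000006014.16, chr1:150449412-150466165, minus strand) had 5 regions: 3 shared, 1 proximal-only and 1 distal-only. There was no region inside the gene. The nearest was 6207 bp upstream and shared, 641 bp wide in the proximal list and 507 bp in the distal list. A second shared region, 407 and 517 bp wide, was 20603 bp upstream. Between them, 14314 bp upstream, lay a proximal-only region 846 bp wide, whose width was above the median of the proximal list, 711 bp, and 5444 bp from the nearest distal peak. The distal-only region, 323 bp wide, was 74144 bp upstream.

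Erg, the ETS factor, had 13 regions, of which 10 were shared, 1 was proximal-only and 2 were distal-only. Erg (ENSMUSG00000040732.20, chr16:95359169-95586593, minus strand) has 6 annotated starts, and the most upstream one had a shared region from 393 bp downstream, 772 bp wide in the proximal list and 968 bp in the distal list. The other 5 starts, from 56228 bp into the gene on, had no region within 1 kb. The upstream flank held 5 regions, all shared, between 25438 and 95556 bp from the gene. The distal-only regions were in introns 1 and 4, 644 and 420 bp wide, and were 1390 and 8689 bp from a proximal peak. The proximal-only region, 718 bp wide, was in intron 1.

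Osr1 and Osr2, the zinc finger factors, had few regions. Osr1 (ENSMUSG00000048387.8, chr12:9570116-9581500, plus strand) had 3, and its start at 9574441 was covered by a shared region (573 bp proximal, 602 bp distal), while its start 4325 bp further upstream had none. A second shared region lay 3035 bp past the gene and had a CRE match, and a distal-only region 332 bp wide lay 74273 bp past it. Osr2 (ENSMUSG00000022330.5, chr15:35296098-35303305, plus strand) had 4 regions, and its most upstream starts were covered by a shared region that was 876 bp wide in the proximal list and 477 bp in the distal list. Its 1 end-only region was proximal-only, 489 bp wide and 23736 bp upstream. Osr2 was the 1 gene of the 10 without a distal-only region.

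Trps1, the GATA-type repressor, had 9 regions in equal parts: 3 shared, 3 proximal-only and 3 distal-only. Trps1 (ENSMUSG00000038679.16, chr15:50654752-50890463, minus strand) has 8 annotated starts. The 2 most upstream starts had no region within 1 kb, a distal-only region 388 bp wide lay within 1 kb of the following 4 starts and 198 bp downstream of the nearest, and a proximal-only region 457 bp wide lay 634 bp downstream of the start that is 7657 bp into the gene. These end-only regions were 6289 bp apart. The first also lay within 1 kb of the start of the microRNA gene Mir1907. Another distal-only region, 84459 bp upstream, was the narrowest of all 74 at 292 bp, and the third, 336 bp wide, lay in intron 4. The other proximal-only regions were 297 bp wide in intron 1, at 341 bp from a distal peak, and 799 bp wide in intron 4. The shared regions were 590, 466 and 698 bp wide in the proximal list and 419, 595 and 584 bp in the distal list.

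Barx1 and Barx2, the homeobox factors, differed at their starts. Barx1 (ENSMUSG00000021381.4, chr13:48662998-48666507, plus strand) had 6 regions and none at its start or in the gene. Its proximal-only regions lay 67830 and 96353 bp upstream, 534 and 489 bp wide, and its distal-only region, 488 bp wide, lay 9733 bp past the gene. The proximal peak was the wider one in each of its 3 shared regions, with a median difference, distal minus proximal, of -97 bp. Barx2 (ENSMUSG00000032033.11, chr9:31846044-31913462, minus strand) had 4 regions, and at its 1 start a distal-only region 527 bp wide began 212 bp downstream and overlapped an exon. The nearest proximal peak was 12455 bp away. In each of the 3 shared regions of Barx2 the distal peak was the wider one, by a median of 34 bp.

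Nfatc2, the calcium-regulated factor, had mostly shared regions, as had the whole study. Nfatc2 (ENSMUSG00000027544.16, chr2:168476410-168601657, minus strand) had 7 regions, of which 6 were shared, beside 73% of all regions. The region at its most upstream starts was 843 bp wide in the proximal list and 883 bp in the distal list. Shared regions in introns 3 and 5 and over an exon were 620, 1108 and 862 bp wide in the proximal list and 612, 1132 and 861 bp in the distal list. The distal-only region, 370 bp wide, was 72930 bp past the gene and 114400 bp from the nearest proximal peak.

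Nfatc1 had 13 regions and, with 4.24 per 100 kb, the highest density of the 10 genes, above that of 88.5% of all autosomal protein-coding genes. Nfatc1 (ENSMUSG00000033016.16, chromosome 18, from 80606205 to 80713071, minus strand) had 9 shared, 1 proximal-only and 3 distal-only regions. The 3 most upstream starts had a shared region, 477 bp wide in the proximal list and 463 bp in the distal list, and a wider shared region, 961 and 967 bp, lay 1674 bp upstream. The start 4898 bp into the gene had none. In intron 8 a proximal-only region of 351 bp and a distal-only region of 640 bp were 1517 bp apart, so that both ends had a peak in this intron at different positions. The downstream flank held 6 regions, 5 shared and 1 distal-only, the latter 843 bp from a proximal peak.

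Over the 10 genes the median number of regions was 6.5 and the median density 2.11 per 100 kb of window, with an SD over genes of 0.869. Over all autosomal protein-coding genes the medians were 5 and 2. The window of 100 kb cut close to regions in few places. Just inside it lay the proximal-only region of Barx1 at 96353 bp and the shared regions of Erg at 95556 and 87753 bp. Just outside lay shared regions of Trps1 at 106652 bp and of Barx1 at 109947 bp and a distal-only region of Osr2 at 112073 bp.

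End-only peaks were narrow. The 19 distal-only peaks had a median width of 423 bp (from 292 to 813 bp), and those of all distal-only regions 497 bp. The 9 proximal-only peaks had a median of 489 bp (from 297 to 846 bp), beside 510 bp over all proximal-only regions. Peaks of shared member regions had medians of 685 bp in the proximal list and 661 bp in the distal list, beside 760 and 735 bp over all shared regions. Of the 19 distal-only regions, 1 reached the median width of distal peaks, 691 bp, and it was the upstream start of Creb5. Over the whole study 18.3% of distal-only regions did. The part of peak strength in the absence of a proximal peak was not tested, since the lists give none.

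**Figure D4:**
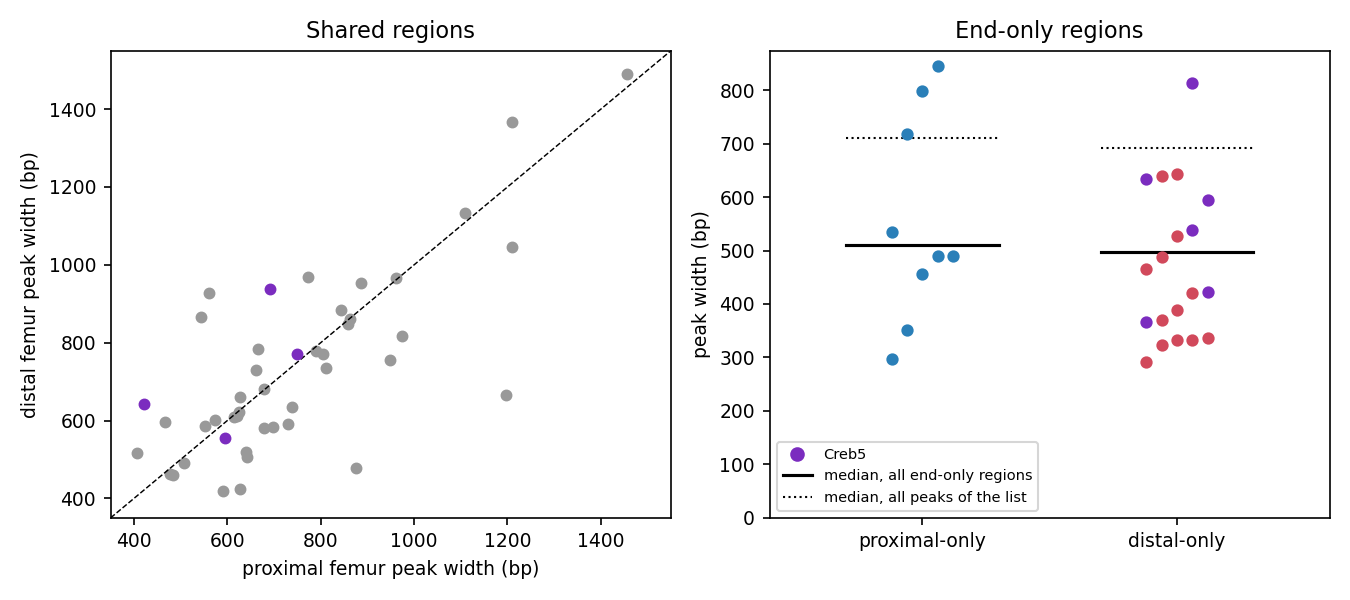
Left, peak widths of the 45 shared regions with 1 peak in each list (x axis, proximal femur, y axis, distal femur, bp), with equal widths on the dashed line and Creb5 in purple. Right, widths of the 9 proximal-only and 19 distal-only peaks with the median of all end-only regions (solid line) and of all peaks of the list (dotted line): 1 distal-only peak, at the upstream start of Creb5, lies above the dotted line at 691 bp.

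The nearest peak of the opposite end lay, at the median, 21903 bp from the 19 distal-only regions and 6289 bp from the 9 proximal-only regions. Over all regions the medians were 20993 and 23408 bp. Of the end-only member regions, 1 of each class had a peak of the other end within 1 kb. In the 45 shared regions with 1 peak in each list, the distal peak was wider in 20 (44.4%), close to the 42.4% of all such regions.

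AP-1 was the most frequent of the 7 motifs searched on both strands, the others being CRE, ETS and NFAT as given before, the GATA motif written AGATAAG, the SOX motif written ACAATGG and the RUNX motif written TGTGGTT. It was found in the central 200 bp of 23 of the 74 regions (31.1%, interval 21.7 to 42.3%), beside 19.9% of all regions. Regions at starts hold it less often, and over 1 kb from any start the shares were 36.1% at the genes (interval 25.2 to 48.6%) and 30.4% in all. Shared, proximal-only and distal-only member regions had it in 16 of 46 (34.8%), 3 of 9 (33.3%) and 4 of 19 cases (21.1%). Over all regions of these classes the shares were 17.3%, 32.7% and 20.5%. The classes are not matched for position: 37 of 46 shared member regions, but 11540 of all 23635 shared regions, were over 1 kb from any start. In the central 200 bp, 2 of the 10 Creb5 regions held AP-1 (20%, interval 5.67 to 51%), near the 19.9% of all regions. Over the whole region length it was found in 7 of the 10 (70.0%, interval 39.7 to 89.2%). The whole-length shares were 33.4% in all regions and 45.8% in all regions over 1 kb from a start. The first of these 2 shares lay below the interval and the second inside it, and 2 of the 10 Creb5 regions are at starts. Regions of 1 selected gene are not independent, so this interval is a description.

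ETS was found in 15 regions (20.3%, beside 22.7% of all regions), NFAT in 7 (9.46%, beside 6.13%) and RUNX in 2 (2.70%, beside 4.63%). CRE, GATA and SOX had 0 matches in the central 200 bp of the 74 regions, which allows a share of up to 4.05% by the limit of 3 counts in 74 and 4.93% by the Wilson interval, and their shares in all regions were 1.09%, 0.719% and 1.20%. Over whole regions CRE was found in 3 (4.05%, interval 1.39 to 11.3%), beside 2.7% of all regions. These lay at the upstream start of Creb5, past Osr1 and 12218 bp upstream of Barx2. No motif share of the genes had an interval that excluded the share of all regions over 1 kb from a start when such regions were compared. An ETS match can overlap an AP-1 match, since both may share letters, and such a region was counted for each.

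**Figure D5:**
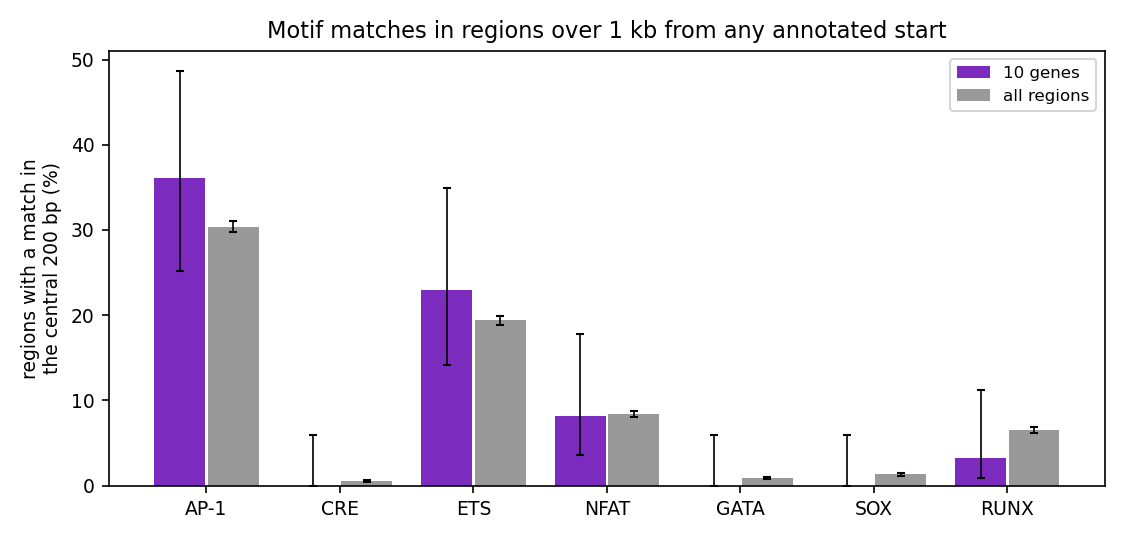
Percentage of regions over 1 kb from any start with a match to each motif in their central 200 bp (y axis), for the 61 regions of the 10 genes (purple) and all 18614 such regions (grey), with 95% Wilson intervals as bars. AP-1 was the most frequent at 36.1% and 30.4%, and each purple interval holds the grey value.

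Each of the relatives of these factors that had a start region had a shared one. Of 14 autosomal relatives (factors of the CREB/ATF, ETS, NFAT and GATA families), 10 had a shared region at a start, among them Atf2 and Atf7, the closest kin of Creb5, beside the 59.1% of all genes with any start region. Gata2, a zinc finger factor gene, had a distal-only start region as well as a shared one. Atf1, Fli1, Gata5 and Gata6 had none. The 78 regions of the relatives were 63 shared, 8 proximal-only and 7 distal-only, where 14.1% and 12.9% of all regions were proximal-only and distal-only. A list of 20 autosomal genes of joint formation and cartilage included Col2a1, Acan and Matn1, used before as cartilage markers. The list is thus not of articular genes alone. Of its 20 genes, 11 had a region at a start, beside 59.1% of all genes. It was distal-only alone at Wnt16, a Wnt ligand gene, and at Comp, the gene of a cartilage matrix protein, and the other 9 had a shared one. Enpp2, the gene of the enzyme autotaxin, had a distal-only start region as well as a shared one. The joint signal gene Gdf5 had none, nor had Wnt4, Wnt9a, Sfrp2, Cilp, Cilp2, Thbs4, Vit or Matn1. This list had 128 regions, 95 shared, 13 proximal-only and 20 distal-only, and 9 of its genes had more distal-only than proximal-only regions (28.3% of all genes), 3 had more proximal-only (23.6% of all genes) and 8 had as many of each.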

How the data were processed

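ATAC-seq peaks of the proximal and distal femur at E15.5 were analysed from 2 peak files deposited by the authors, 1 per femur end, each combining 2 biological replicates. The deposited values are peak positions without a score or signal. According to the submitters' processing notes the reads were aligned to mm10 with Bowtie2 2.2.8 and peaks were called with MACS2 2.1.1. Duplicates were removed and peaks were kept at an IDR under 0.05. Reads were not analysed here, so the depth behind each peak is unknown.

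Peaks of both lists that overlapped by at least 1 bp were merged into regions with Python 3.11.15. A region was shared if it held a peak of both ends and end-only otherwise. Regions within 100 kb of a gene were assigned to it by the GENCODE mouse release M21 annotation, and start regions had an edge within 1 kb of an annotated start. Motifs were searched in the central 200 bp (pysam 0.24.0). Shares have 95% Wilson intervals (SciPy 1.17.1). The steps were tested on simulated data. No test between ends was possible with 1 list per end. All 10 members were named, with the protein-coding genes whose starts lie in their windows. The listed relatives and joint genes without a start region or with an end-only one were named too. So were the 5 genes outside the member windows with the largest excess of distal-only regions, 1 per group of overlapping windows. The members and lists were chosen with earlier results of these data known, and Atf2 and Atf7 were named after their values were seen. Alternatives are given in the closing section.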

Additional observations from a re-analysis of the deposited data

How the results depend on the processing

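No paired analysis was possible because each femur end has 1 list that combines its replicates, and for the same reason no replicate could be left out. Of 54 values under alternatives, 44 stayed within 1.5 times the reported count, within its interval or within 1 SD. The limit on width moved most. It kept regions with at least 1 peak of their list's median width or more, in their original class. The 10 genes then had 26 shared, 3 proximal-only and 1 distal-only region, and Creb5 had 2 shared and 1 distal-only. With the overlap of the region and the start itself required, 5 genes had a start region instead of 8. Over whole regions instead of their centres, AP-1 was found in 51.4%, ETS in 43.2%, NFAT in 23.0% and RUNX in 10.8% of member regions, since longer sequences were searched. The whole-length shares in all regions were 33.4%, 55.6%, 19.2% and 14.1%, but these are not matched for position. Over 1 kb from any start, the whole-length shares at the genes were 57.4%, 49.2%, 24.6% and 9.84%. In all such regions they were 45.8%, 45.1%, 21.6% and 16.3%, and the interval at the genes held that share for each of these motifs. The 6 distal-only and 0 proximal-only regions of Creb5 were counted at windows of 50 and 200 kb, at a reciprocal overlap of 50% and with peaks up to 500 bp apart taken as shared. These settings could not lower the distal-only count, since each of the 6 overlapped the gene and was at least 9781 bp from a proximal peak. Leaving out Creb5, an alternative chosen after seeing the data, gave 42 shared, 9 proximal-only and 13 distal-only regions. The lists carry no depth or height, so a peak missing from a list is not shown to be closed chromatin.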
